A study of Mus musculus with 8 samples.

Results

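10 genes that mark the adult beta cell were followed in islets of mice with and without the cannabinoid 1 receptor (CB1R) in beta cells: the peptide hormone genes *Ins1*, *Ins2*, *Iapp* and *Ucn3*, and the transcription factor genes *Pdx1*, *Mafa*, *Nkx6-1*, *Nkx2-2*, *Neurod1* and *Pax6*. They were chosen by name, and their probes were found through the transcript that each probe was designed for. This gave 13 of the 55681 probes of the array and 10 of the 21154 genes with a named probe. *Nkx2-2*, *Neurod1* and *Pax6* had 2 probes each, and the brighter is described unless stated.

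The islets were hand-picked after collagenase digestion of the pancreas of male C57BL/6 mice on standard diet. The β-CB1R+/+ controls (4 mice) were *Cnr1* flox/flox:MIP-Cre/ERT-, and the β-CB1R-/- mice (3 mice) were their *Cnr1* flox/flox:MIP-Cre/ERT+ littermates. Both groups received tamoxifen in a daily course, both carry the floxed *Cnr1* gene, and the controls carry no Cre, which the mouse insulin promoter drives in the β-CB1R-/- mice. The age of the mice at islet isolation is not given in the sources used here. The genotypes come from the study and its design text, whereas the sample labels give only CB1 KO or CB1 WT and their housing note speaks of the global knockout. Cy3-labelled RNA of each mouse was put on a 1-colour Agilent array, and β-CB1R-/- mouse 2 on a pair of arrays that were averaged, which gives 8 arrays and 7 mice.

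Levels are log2 intensities relative to the 75th percentile of the spots of the same array, so that a difference of 1 is a doubling. The groups were compared per probe with limma across 39165 probes with Benjamini-Hochberg adjustment, and n is 4 β-CB1R+/+ and 3 β-CB1R-/- mice throughout. A level depends on the probe as well as on the transcript, so levels are compared between mice and not between genes. All 8 arrays shared 1 slide and 1 scan, and each genotype filled its own side of that slide, so position and genotype cannot be told apart. *Cnr1*, the targeted gene, was lower in every β-CB1R-/- mouse (log2 difference −1.97, SE 0.33, limma adjusted p = 0.193). The number of arrays limits the precision of every difference.

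Beta cells make, store and secrete insulin, and co-secrete islet amyloid polypeptide, the product of *Iapp*. Pdx1, Mafa and Neurod1 bind and activate the insulin genes, while Nkx6-1, Nkx2-2 and Pax6 hold the beta cell programme in place and repress genes of other islet cells. Mafa and urocortin 3, the product of *Ucn3*, appear late in maturation and are widely used as marks of the mature mouse beta cell. Homeodomain factors such as Pdx1, Nkx6-1 and Pax6 recognise sites with the core TAAT, and the basic helix-loop-helix factor Neurod1, with its partners, recognises E-boxes, CANNTG.

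The RefSeq table (GRCm38.p6) held the window of 250 bases before the annotated start for 8 of the 10 genes, with 2 windows for *Pax6*. *Ins2* and *Mafa* were not in it. Of these 9 windows, 6 held TAAT on either strand (also read as ATTA), and 7 held CANNTG, which reads the same on both strands. Over all 32851 windows of the table, 54.9% held TAAT and 66.2% held CANNTG. The windows of the hormone genes in the table, *Ins1*, *Iapp* and *Ucn3*, are shown with that of *Nkx6-1*, the factor gene with the largest difference between the genotypes. Capitals mark TAAT, ATTA and CANNTG, overlapping matches are joined, and a match is a run of letters and not a bound site.
Ins1 (chr19:52264047-52264296, plus strand): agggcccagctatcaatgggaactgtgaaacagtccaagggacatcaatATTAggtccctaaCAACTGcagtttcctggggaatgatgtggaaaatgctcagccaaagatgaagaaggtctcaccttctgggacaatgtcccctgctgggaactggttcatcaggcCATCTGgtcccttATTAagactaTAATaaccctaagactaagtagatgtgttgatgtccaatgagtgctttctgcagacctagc
Iapp (chr6:142298175-142298424, plus strand): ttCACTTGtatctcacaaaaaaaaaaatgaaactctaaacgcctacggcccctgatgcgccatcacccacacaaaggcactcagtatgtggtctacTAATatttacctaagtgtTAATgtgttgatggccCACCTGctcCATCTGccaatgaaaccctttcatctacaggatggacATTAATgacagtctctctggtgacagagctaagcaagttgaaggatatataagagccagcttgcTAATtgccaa
Ucn3 (chr13:3945350-3945599, minus strand): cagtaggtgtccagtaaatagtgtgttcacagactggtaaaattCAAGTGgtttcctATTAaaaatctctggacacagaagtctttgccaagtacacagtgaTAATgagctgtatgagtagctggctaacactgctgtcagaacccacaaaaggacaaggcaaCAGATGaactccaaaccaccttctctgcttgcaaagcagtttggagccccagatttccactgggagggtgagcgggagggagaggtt
Nkx6-1 (chr5:101664712-101664961, minus strand): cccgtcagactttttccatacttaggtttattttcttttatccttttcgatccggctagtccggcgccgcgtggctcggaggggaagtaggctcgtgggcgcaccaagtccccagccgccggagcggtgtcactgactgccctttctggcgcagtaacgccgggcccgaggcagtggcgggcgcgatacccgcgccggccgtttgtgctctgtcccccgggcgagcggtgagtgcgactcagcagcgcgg
The window of *Ins1* held 3 matches to TAAT or ATTA and 2 to CANNTG, that of *Iapp* 5 and 3, and that of *Ucn3* 2 and 2. The window of *Nkx6-1* held neither motif.

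All 13 probes were well above background on all 8 arrays, and none was saturated or had an irregular spot. No probe of the 10 genes passed the threshold between the genotypes (limma adjusted p = 0.999 for each of the 13), against 43 of all 39165 probes compared (0.11%). At an unadjusted limma p of 0.05 the count was 0 of the 13 member probes, against 3.59% of all probes. The methods' *t* test at the same unadjusted threshold passed 1 of the 13 probes, against 3.61% of all probes, and, after adjustment, none. The level was lower in β-CB1R-/- islets in 9 of the 10 genes. By probes it was lower in 12 of the 13, where 52.3% of all probes compared were below 0. These signs are not independent, since *Ucn3* and the 6 factors varied together over the mice (Pearson's r 0.69 to 0.98). The median log2 difference was −0.09 for the 4 hormone genes and −0.24 for the 6 factor genes, against −0.02 for all probes and −0.04 for the brightest probe of all 16959 genes compared. No decrease is established by these values. In RNA of whole islets, a change in the share of beta cells and a change in RNA per beta cell cannot be told apart.

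*Ins1*, the rodent-specific insulin gene, had levels of 11.23, 10.85, 10.91 and 10.78 in β-CB1R+/+ mice 1 to 4, and 11.05, 11.03 and 10.41 in β-CB1R-/- mice 1 to 3. β-CB1R-/- mouse 3 was the lowest of the 7, and the other β-CB1R-/- mice lay within the β-CB1R+/+ range. The log2 difference was −0.11 (SE 0.23, 95% CI −0.65 to 0.43). *Ins2*, the mouse counterpart of the single human insulin gene, had levels of 10.47, 9.89, 10.13 and 10.11 in the β-CB1R+/+ mice and 10.47, 10.50 and 9.71 in the β-CB1R-/- mice. It was the only gene of the 10 with a log2 difference above 0 (0.07, SE 0.26, 95% CI −0.53 to 0.68), and again the lowest level was that of β-CB1R-/- mouse 3.

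*Iapp* gave 10.05, 9.55, 9.77 and 9.59 in the β-CB1R+/+ mice and 9.84, 9.88 and 9.31 in the β-CB1R-/- mice. Its order of mice resembled that of the insulin genes, and its log2 difference was −0.07 (SE 0.23, 95% CI −0.60 to 0.47). *Ucn3* behaved differently: it gave 5.10, 5.72, 5.65 and 5.08 in the β-CB1R+/+ mice and 4.58, 4.46 and 5.54 in the β-CB1R-/- mice. β-CB1R-/- mice 1 and 2 were below every β-CB1R+/+ mouse, and β-CB1R-/- mouse 3 was among the higher of the 7. The log2 difference of *Ucn3* was the largest in size of the 10 genes, −0.53 (SE 0.32, 95% CI −1.27 to 0.22), and a two-sided exact permutation test, which takes the group means of all 35 divisions of the mice, gave p = 0.171. The smallest p that this test can give here is 0.0286.

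**Figure D1:**
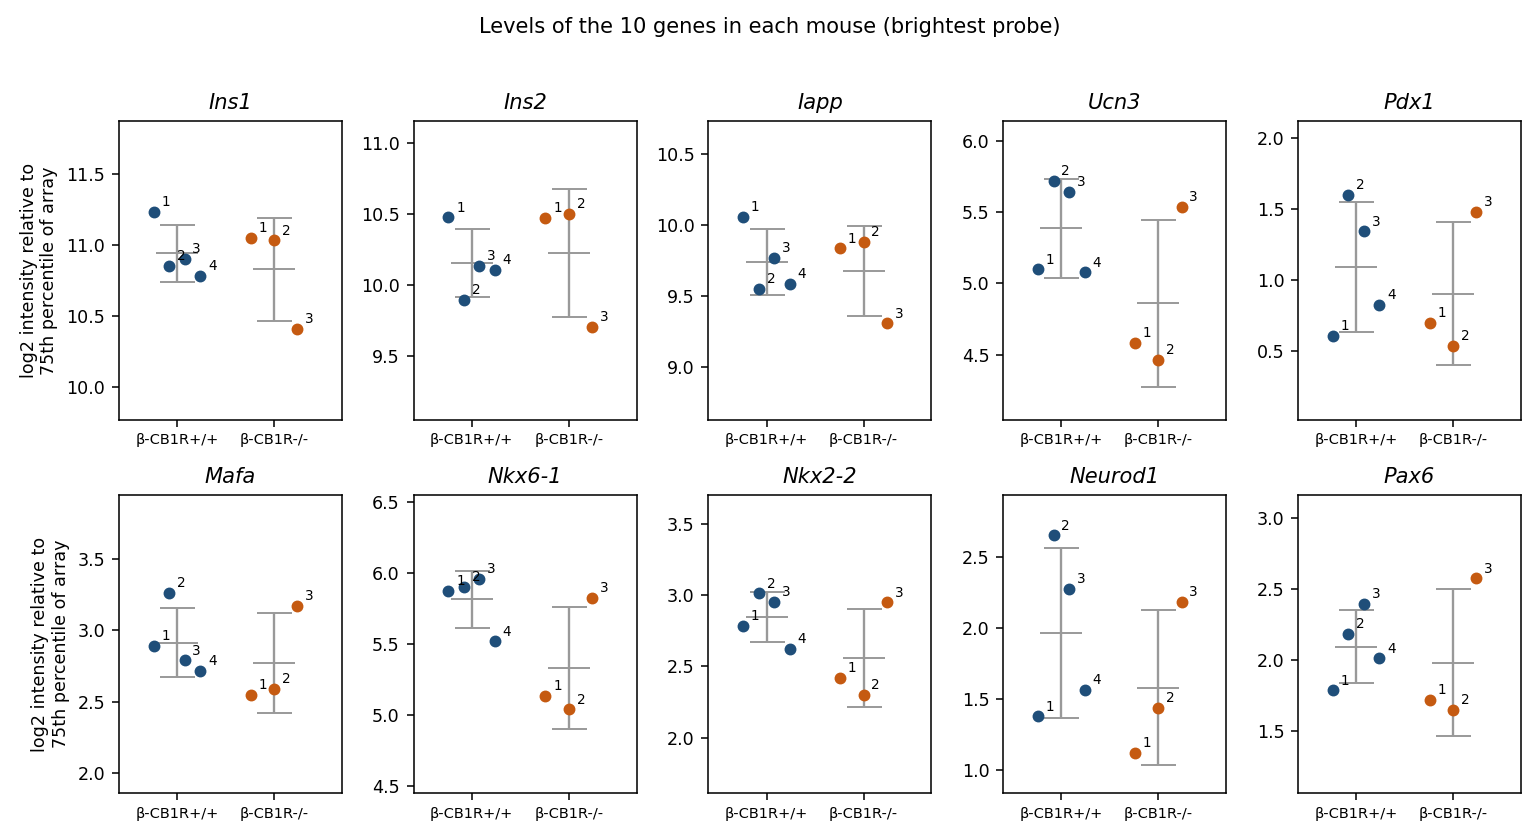
Level of each of the 10 genes in each mouse, as log2 intensity relative to the 75th percentile of the array, with the replicate number beside each point. Grey bars are the mean ± SD of each genotype (n = 4 and n = 3 mice), and every panel spans the same log2 range around its own centre. β-CB1R-/- mouse 3 is the lowest of the 7 mice for *Ins1*, *Ins2* and *Iapp* and lies apart from β-CB1R-/- mice 1 and 2 in the other panels.

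Among the factors, *Nkx6-1*, which keeps beta cells distinct from alpha cells, had levels of 5.88, 5.90, 5.96 and 5.52 in the β-CB1R+/+ mice and 5.14, 5.04 and 5.83 in the β-CB1R-/- mice. β-CB1R-/- mice 1 and 2 were below every β-CB1R+/+ mouse, while mouse 3 was inside the β-CB1R+/+ range. The log2 difference was −0.48 (SE 0.25, 95% CI −1.06 to 0.10, unadjusted limma p = 0.0908), the lowest p among the brightest probes of the 10 genes, and the exact permutation p was 0.143. *Pdx1*, the factor at the head of pancreas development and a direct activator of insulin transcription, ranged from 0.61 to 1.60 in the β-CB1R+/+ mice and from 0.54 to 1.48 in the β-CB1R-/- mice, with a log2 difference of −0.19 (SE 0.33, 95% CI −0.95 to 0.57). *Mafa*, the maturation factor, ranged from 2.71 to 3.26 and from 2.54 to 3.17 in the same order, with a log2 difference of −0.14 (SE 0.24, 95% CI −0.70 to 0.41). The ranges of the genotypes overlapped for both.

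The probes of *Nkx2-2*, a repressor of alpha cell genes in beta cells, did not place the mice alike. The brighter gave 2.79, 3.01, 2.95 and 2.62 in the β-CB1R+/+ mice and 2.42, 2.30 and 2.95 in the β-CB1R-/- mice (log2 difference −0.29, SE 0.23). The dimmer, designed for another transcript of the gene, gave 1.65, 2.17, 1.86 and 1.83 in the β-CB1R+/+ mice and 1.27, 1.45 and 1.63 in the β-CB1R-/- mice (log2 difference −0.42, SE 0.20, 95% CI −0.89 to 0.05, unadjusted limma p = 0.0722, exact permutation p = 0.0571). On the dimmer probe the genotypes did not overlap, which was so for 1 of the 13 member probes and, in either direction, for 4.12% of all probes compared. The closest mice, β-CB1R+/+ mouse 1 and β-CB1R-/- mouse 3, were at 1.65 and 1.63. β-CB1R-/- mouse 3 lay at the level of the higher β-CB1R+/+ mice on the brighter probe and just below the lowest on the dimmer, and β-CB1R+/+ mouse 4 was the lowest β-CB1R+/+ mouse on the brighter probe but not on the dimmer.

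*Neurod1*, which activates insulin transcription with its partners, varied most between mice. The brighter probe ranged from 1.38 to 2.65 in the β-CB1R+/+ mice and from 1.12 to 2.19 in the β-CB1R-/- mice, and the log2 differences of the probes were −0.38 (SE 0.39) and −0.46 (SE 0.29). *Pax6*, needed in all islet endocrine cells, ranged from 1.79 to 2.39 and from 1.65 to 2.57 in the same order. Its probes gave log2 differences of −0.11 (SE 0.28) and −0.20 (SE 0.38), and the ranges of the genotypes overlapped on both.

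**Figure D2:**
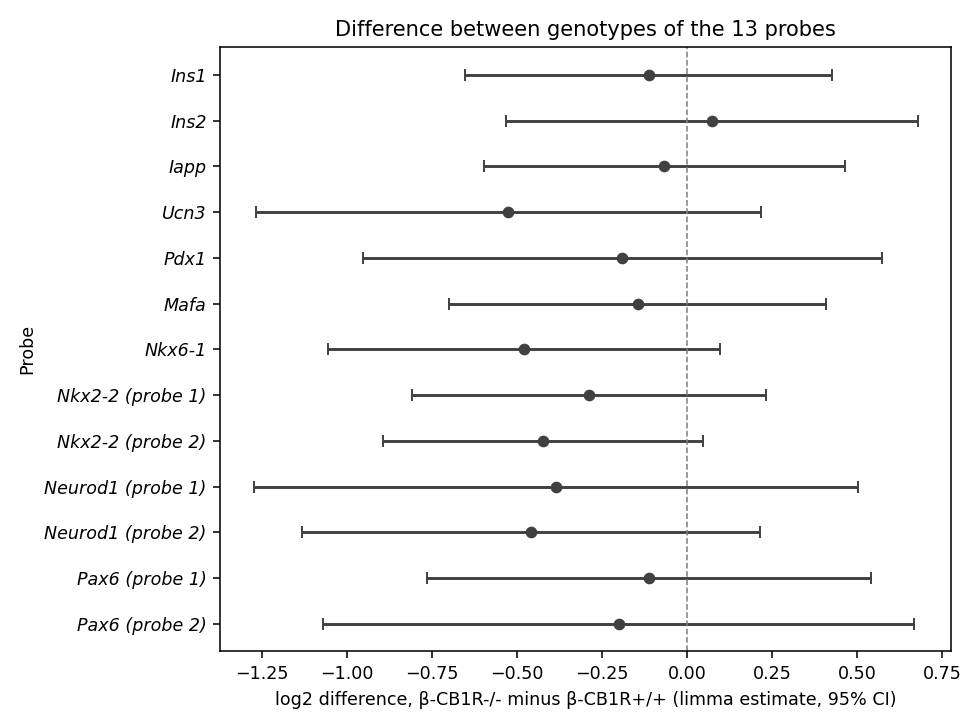
Log2 difference between the genotypes for each of the 13 probes, as the limma estimate with its 95% confidence interval. Probe 1 is the brighter probe of a gene and probe 2 the dimmer. All 13 intervals include 0, and 12 of the 13 estimates lie below it.

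The lowest level of *Ucn3* and of each factor was in β-CB1R-/- mouse 1 or 2. For *Ins1*, *Ins2* and *Iapp* it was in β-CB1R-/- mouse 3. β-CB1R-/- mouse 1 was below every β-CB1R+/+ mouse in 6 of the 10 genes (*Ucn3*, *Mafa*, *Nkx6-1*, *Nkx2-2*, *Neurod1* and *Pax6*), and β-CB1R-/- mouse 2 also in 6 (*Ucn3*, *Pdx1*, *Mafa*, *Nkx6-1*, *Nkx2-2* and *Pax6*). Over the brightest probes of all genes compared, these mice were below every β-CB1R+/+ mouse in 29.2% and 31%. β-CB1R-/- mouse 3 was below every β-CB1R+/+ mouse in *Ins1*, *Ins2* and *Iapp* (19.9% of all genes compared) and above every β-CB1R+/+ mouse in *Pax6*. Averaged over *Ucn3* and the 6 factors, each first taken relative to its mean over the 7 mice, the β-CB1R-/- mice stood at −0.43, −0.46 and 0.36 and the β-CB1R+/+ mice at −0.11, 0.45, 0.31 and −0.12. Without β-CB1R-/- mouse 3 the log2 differences were −0.73 for *Nkx6-1*, −0.86 for *Ucn3*, −0.48 for *Nkx2-2* and −0.69 for *Neurod1*. In that fit 4 of the 13 member probes had an unadjusted limma p under 0.05, as did 9.73% of all probes compared in it. They were the brightest probes of *Nkx6-1*, *Ucn3* and *Nkx2-2* and the dimmer probe of *Neurod1*. The lowest limma adjusted p of the 13 probes was 0.503. With that mouse left out, the differences of *Ins1* and *Iapp* turned to 0.10 and 0.12. Without β-CB1R-/- mouse 2 instead, *Nkx6-1*, *Ucn3* and *Nkx2-2* gave −0.33, −0.33 and −0.16, and without β-CB1R-/- mouse 1 *Neurod1* gave −0.16. The array of β-CB1R-/- mouse 3 had the highest 75th percentile of all (intensity 362.1, against 235.5 to 289.4 on the other 7 arrays). Unscaled, β-CB1R-/- mouse 3 was still the lowest for *Ins1* (493506). It was not the lowest for *Ins2* (302635, against 275253 in β-CB1R+/+ mouse 2) or *Iapp* (229570, against 216809 in β-CB1R+/+ mouse 2). The part of the percentile in the levels of β-CB1R-/- mouse 3 was not tested further.

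The spread between mice was larger than that between arrays of the same mouse. The SD between mice of a genotype, pooled over both genotypes, had a median of 0.33 over the 10 genes, while the pair of arrays of β-CB1R-/- mouse 2 differed by a median of 0.08. For all probes compared the same values were 0.39 and 0.14. *Nkx2-2* was the exception among the 10, with 0.44 between the arrays and an SD of 0.26 between mice. Without β-CB1R-/- mouse 3 the median SD between mice was 0.21.

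*Ins1*, *Ins2* and *Iapp* varied together between mice, and so did *Ucn3* and the 6 factors, but the sets ran in opposite directions on this scale. The sets were drawn after these levels were seen, with the hormone gene *Ucn3* placed beside the factors that it followed, so the ranges of r describe them and are no test of the division. Over the 7 mice Pearson's r was 0.90 to 0.97 for the 3 pairs within the first set, 0.69 to 0.98 for the 21 pairs within the second, and −0.90 to −0.27 for the 21 pairs between them. With the differences between genotypes taken out, the ranges were 0.96 to 0.97, 0.67 to 0.97 and −0.90 to −0.52. Spearman's rho ran from 0.86 to 0.96, from 0.64 to 1, and from −0.93 to −0.14. After leaving out the 2 mice farthest from the median of the gene on the x axis, r ran from 0.86 to 0.91, from 0.28 to 0.97, and from −0.88 to −0.47.

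The strongest relation was that of *Ucn3* with *Nkx2-2* (r = 0.98, exact permutation p = 0.000198, adjusted p = 0.00893 over the 45 pairs; rho = 1, adjusted p = 0.0179). *Ucn3* also followed *Nkx6-1* (r = 0.93, rho = 0.93), *Pdx1* (r = 0.90, rho = 0.86) and *Neurod1* (r = 0.90, rho = 0.82). *Nkx6-1* followed *Nkx2-2* (r = 0.97, rho = 0.93), and *Pdx1* followed *Neurod1* (r = 0.95, rho = 0.82). The relations of *Nkx2-2* rest on its brighter probe, which did not place the mice as the dimmer did. On that brighter probe the arrays of β-CB1R-/- mouse 2 differed by 0.44, more than the SD of 0.26 between mice. The relations were not run with the dimmer probe. In all, 11 of the 45 pairs had an exact permutation p for r under 0.05 after adjustment, and 1 of the 45 for rho. The count for r was 0 without β-CB1R+/+ mouse 4 or β-CB1R-/- mouse 3, 2 without β-CB1R-/- mouse 2, 3 without β-CB1R-/- mouse 1 and 5 without β-CB1R+/+ mouse 2. Between the sets *Ins2* with *Pax6* (r = −0.90, rho = −0.86) and with *Pdx1* (r = −0.90, rho = −0.93) were the pairs that passed.

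The inverse relation between the sets depended on how the arrays were scaled. Under quantile normalisation, which gives every array the same set of values, 20 of the 21 pairs between the sets had r above 0, and the medians of these r were 0.54 there and −0.62 with scaling to the 75th percentile. With no scaling at all, all 21 were below 0 (median −0.54), and with the deposited Z scores 19 of 21 were. The relation within *Ucn3* and the 6 factors kept r above 0 in all 21 pairs under each of these scalings. Under the normexp background correction 20 of the 21 were above 0. The 3 pairs of *Ins1*, *Ins2* and *Iapp* stayed above 0 throughout, but the size of r depended on the scaling. It was 0.45 to 0.75 unscaled, 0.35 to 0.85 under quantile normalisation, and 0.98 to 0.99 with the deposited Z scores.

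**Figure D3:**
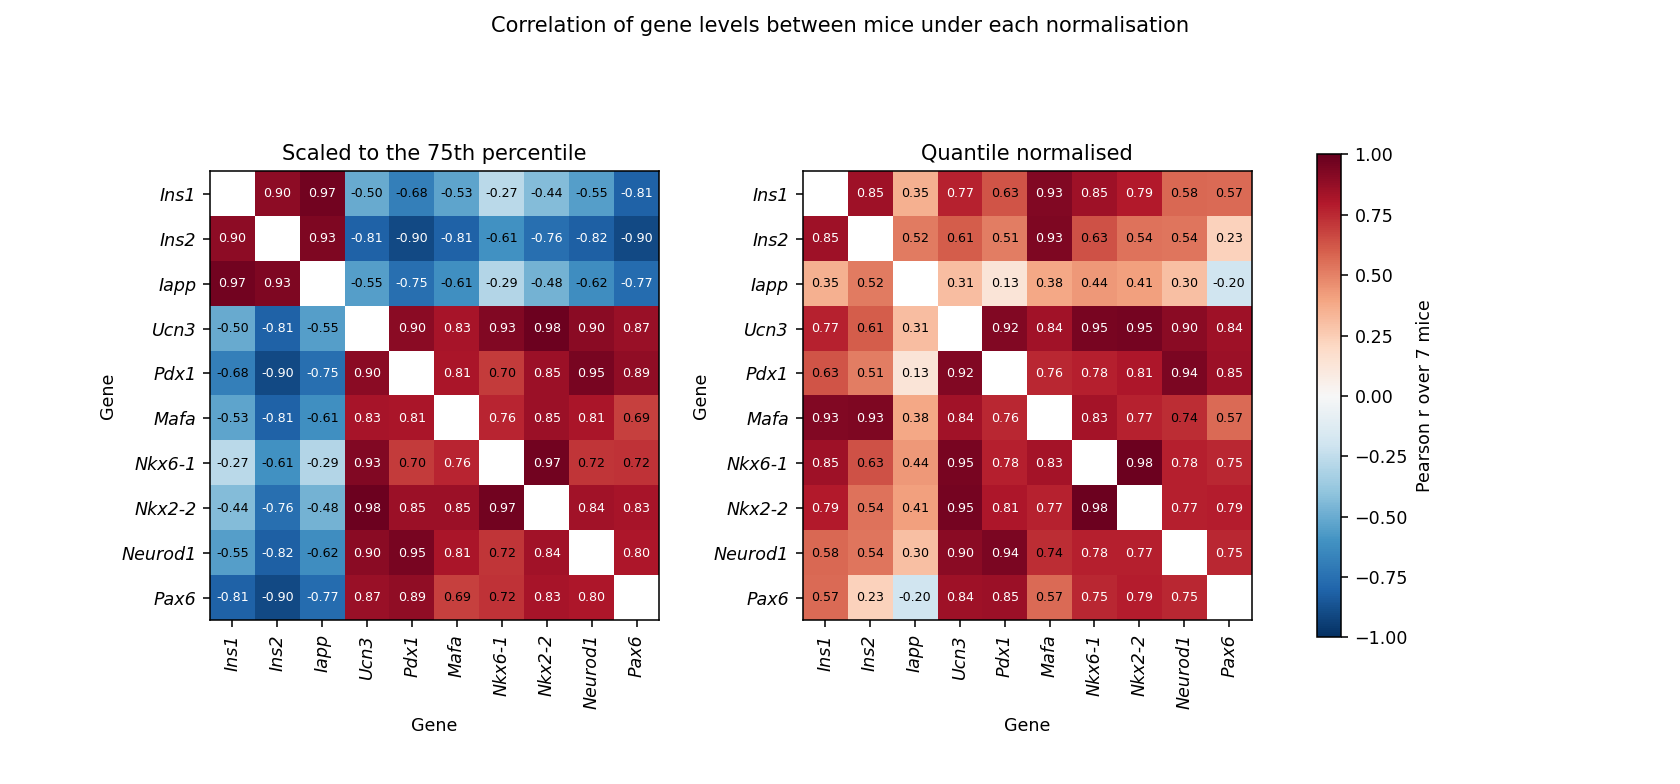
Pearson's r over 7 mice for each pair of the 10 genes, with levels scaled to the 75th percentile (left) and quantile normalised (right). The block of *Ucn3* and the 6 factors is positive in both (0.69 to 0.98 on the left), while the 21 cells that join it to *Ins1*, *Ins2* and *Iapp* are all negative on the left and 20 of them are positive on the right.

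The unscaled intensities of *Ins1*, *Ins2* and *Iapp* varied little between mice. The background-subtracted intensity of the *Ins1* probe lay between 493506 and 599085 on the 8 arrays, 63.4% to 77.0% of the value at which the scanner saturates, and it was the brightest to the 6th brightest probe of its array. *Ins2* reached 35.4% to 47.5% of that value and ranked 14th to 24th, and *Iapp* 27.9% to 34.0% and 26th to 50th. Between the lowest and the highest mouse the unscaled intensity differed 1.21-fold for *Ins1*, 1.31-fold for *Ins2* and 1.22-fold for *Iapp*, but 2.21-fold for *Mafa* to 3.28-fold for *Neurod1* among the other 7 genes. The 75th percentile, which is subtracted in the scaled levels, spanned 7.96 to 8.50 on the log2 scale over the mice. The log2 range of *Ins1* over the mice was 0.28 unscaled and 0.82 scaled, while that of *Neurod1* was 1.72 unscaled and 1.53 scaled. The part of the percentile in the inverse relation was not tested beyond the scalings above.

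**Figure D4:**
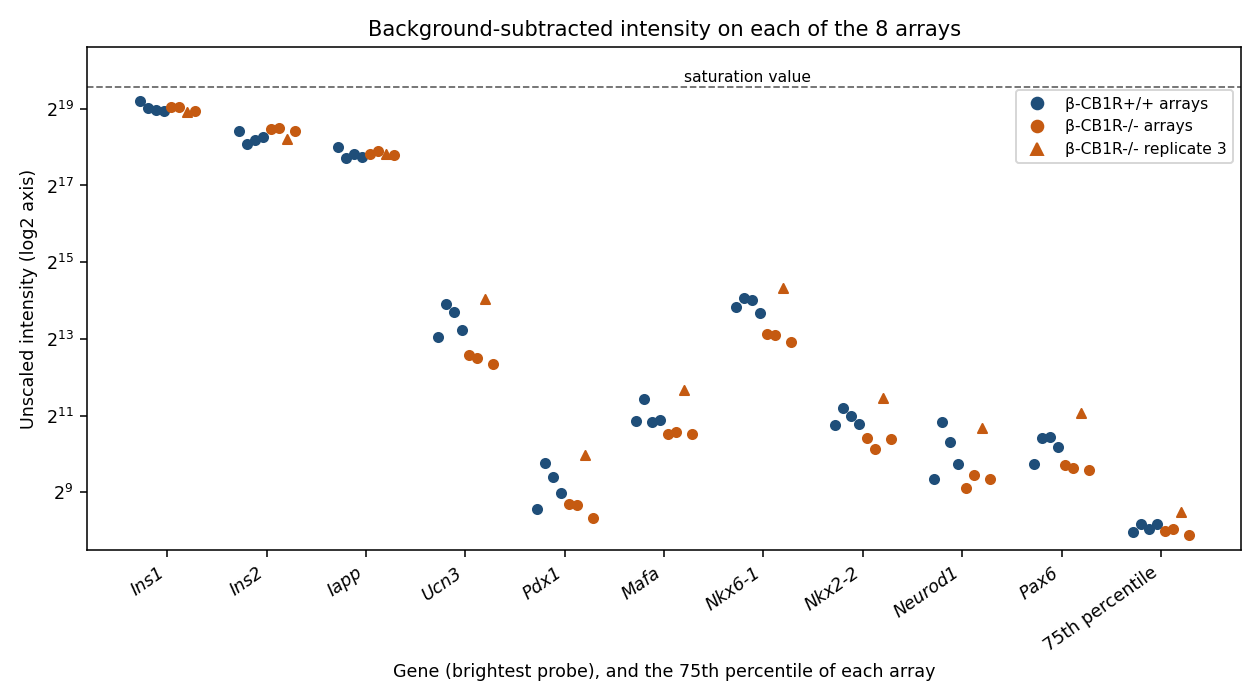
Background-subtracted, unscaled intensity of the brightest probe of each gene on each of the 8 arrays (log2 axis), with the 75th percentile of each array at the right; the dashed line is the saturation value of the scanner and triangles are β-CB1R-/- mouse 3. *Ins1* spans 1.21-fold over the mice and *Neurod1* 3.28-fold, and β-CB1R-/- mouse 3 has the highest 75th percentile.

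Markers of exocrine acinar cells, which surround islets and can adhere to picked ones, moved with these genes. Of 27 acinar genes compared (30 in the list), 26 were well above background on all 8 arrays, and *Sycn*, also bright, had an irregular spot on 1 array that was left out. Between the genotypes 26 of the 27 had a log2 difference above 0 and 1 below, where 52.3% of all probes compared were below 0. Their median was 0.19, against −0.04 for all genes compared, and 0 of the 27 had an unadjusted limma p under 0.05. The mean of the list, relative to its mean over the mice, was 0.33, −0.98, 0.09 and 0.16 in β-CB1R+/+ mice 1 to 4 and 0.57, 0.47 and −0.67 in β-CB1R-/- mice 1 to 3. Some acinar probes reached higher intensities than that of *Ins1* (*Cela3b* up to 701680 and *Cel* up to 663317), where the scanner saturates at 778159. The summed level of the list, in multiples of the 75th percentile, ran from 16390 to 35736 in the β-CB1R+/+ mice and from 19123 to 40385 in the β-CB1R-/- mice. Thus the mice with the lowest acinar levels, β-CB1R+/+ mouse 2 and β-CB1R-/- mouse 3, were those with the highest mean of *Ucn3* and the 6 factors, and β-CB1R-/- mice 1 and 2 were at the other end of both.

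Over the 7 mice the acinar mean had r of −0.95 with *Mafa* (rho −0.89), −0.90 with *Pdx1* (rho −0.89), −0.89 with *Neurod1* (rho −0.93) and 0.90 with *Ins2* (rho 0.82). The exact permutation p of these 4 r was 0.00337, 0.00139, 0.00298 and 0.00476, and they were the 4 of 40 relations (10 genes with 4 marker lists) that passed after adjustment (adjusted p = 0.0450 for the first 3 and 0.0476 for *Ins2*); none of the 40 passed for rho, with a lowest adjusted p of 0.0984. The relations with marker lists were added after the data were seen, so these p-values are no planned test. How many of all genes would pass with the acinar mean was not computed. After leaving out the 2 mice farthest from the median of the acinar mean, r of the same 4 genes was −0.67, −0.75, −0.85 and 0.89. With *Nkx6-1* and *Ucn3* r was −0.64 and −0.81. Under quantile normalisation r stayed below 0 for *Ucn3* and the 6 factors (−0.89 for *Mafa*, −0.83 for *Pdx1*) but turned for *Ins1* (−0.69), *Ins2* (−0.84) and *Iapp* (−0.36), and under normexp it turned for *Pax6* (0.16). The part of acinar RNA in the levels of the 10 genes was not tested.

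**Figure D5:**
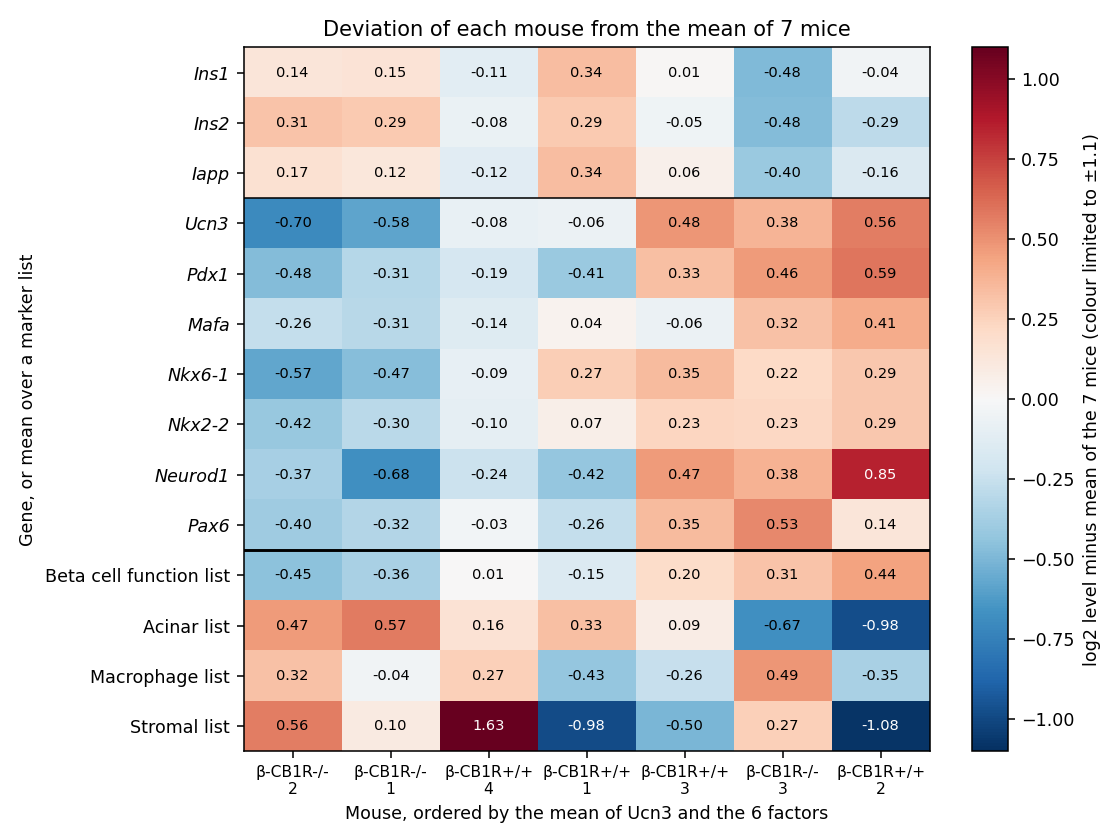
Log2 level of each gene, or mean over a marker list, minus its mean over the 7 mice, with the mice ordered from left to right by the mean of *Ucn3* and the 6 factors. The acinar list is high at the left (β-CB1R-/- mice 2 and 1) and low at the right (β-CB1R-/- mouse 3 and β-CB1R+/+ mouse 2), and β-CB1R+/+ mouse 4 has the highest stromal mean, 1.63.

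No relation of the 10 genes with the stromal, macrophage or immediate-early list passed after adjustment. The stromal list (13 compared) was at 1.63 in β-CB1R+/+ mouse 4 and at −1.08 to 0.56 in the others. The macrophage list (15 compared) stood at −0.43 to 0.27 in the β-CB1R+/+ mice and −0.04 to 0.49 in the β-CB1R-/- mice. Of its 15 genes 13 had a log2 difference above 0, where 52.3% of all probes compared were below 0. The median was 0.38, against −0.04 for all genes compared. *Gcg*, *Sst* and *Ppy*, the hormone genes of alpha, delta and PP cells, were well above background on all arrays, with log2 differences of −0.36 (SE 0.20), −0.53 (SE 0.25) and 0.54 (SE 0.61). The immediate-early gene *Fos* was high in β-CB1R+/+ mice 3 and 4 and β-CB1R-/- mouse 2 (5.34 to 6.31) and low in the other 4 mice (−1.59 to 0.75). The mean of *Ucn3* and the 6 factors was 0.31, −0.12 and −0.46 in the 3 mice with high *Fos* and ran from −0.43 to 0.45 in the other 4.

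Other genes of the beta cell programme were read from lists of islet transcription factors, of genes for glucose sensing and secretion, and of genes of immature or dedifferentiated beta cells. None of the 76 genes compared in these lists passed the threshold (limma adjusted p), and 8 had an unadjusted p under 0.05, which 3.9% of all genes compared had. Among 26 other islet factors 11 were above 0 and 15 below (median log2 difference −0.11). *Rfx6* and *Insm1*, factors of endocrine differentiation, gave −0.60 (SE 0.32) and −0.47 (SE 0.29). *Isl1*, an activator of islet hormone genes, gave −0.31 (SE 0.22), and *Foxa2*, which acts upstream of *Pdx1*, gave −0.30 (SE 0.21). *Hnf4a*, a nuclear receptor of liver, gut and islet cells, gave 0.29 (SE 0.19). *Pax4* was not above background in enough mice to be compared.

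Of 29 genes for beta cell function 23 were below 0 and 6 above, where 52.3% of all probes compared were below 0. Their median log2 difference was −0.29, against −0.04 for all genes compared. Lower levels were not particular to beta cell genes. Of 13 alpha cell genes 9 were below 0 and 4 above (median −0.42). Of 10 genes of delta, PP and epsilon cells 8 were below 0 and 2 above (median −0.52). *Slc30a8*, the zinc transporter of the insulin granule, had levels of 6.88, 7.71, 7.28 and 6.99 in the β-CB1R+/+ mice and 6.44, 6.20 and 7.10 in the β-CB1R-/- mice (log2 difference −0.64, SE 0.30). *Slc2a2*, the glucose transporter of mouse beta cells, gave −0.74 (SE 0.42), and both had their lowest level in β-CB1R-/- mouse 2. *Ero1b*, which helps proinsulin to fold, gave −0.43 (SE 0.24), and *Glp1r*, the receptor for GLP-1, −0.33 (SE 0.40). *G6pc2*, a glucose-6-phosphatase of the islet, and *Pcsk1*, a proinsulin convertase, gave −0.06 (SE 0.31) and −0.09 (SE 0.32). The mean of this list over its genes was −0.36, −0.45 and 0.31 in the β-CB1R-/- mice, against −0.15 to 0.44 in the β-CB1R+/+ mice, the same order of the β-CB1R-/- mice as for *Ucn3* and the factors.

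Among 23 genes of immature or dedifferentiated beta cells 10 were above 0 and 13 below (median −0.04). *Neurog3*, the factor of endocrine progenitors, had levels of 1.90, 2.77, 2.12 and 1.77 in the β-CB1R+/+ mice and 1.24, 0.95 and 1.93 in the β-CB1R-/- mice (log2 difference −0.77, SE 0.33, exact permutation p = 0.143). *Aldh1a3*, an enzyme that rises in dedifferentiating beta cells, was dim, well above background on 7 of the 8 arrays, with levels of −2.70, −2.43, −2.83 and −2.23 in the β-CB1R+/+ mice and −3.48, −3.32 and −3.04 in the β-CB1R-/- mice. Its log2 difference was −0.73 (SE 0.22, unadjusted limma p = 0.0113, adjusted p = 0.999), the genotypes did not overlap (exact permutation p = 0.0286), and the arrays of β-CB1R-/- mouse 2 differed by 1.18. *Gast* and *Npy*, hormone genes that reappear in immature beta cells, gave 0.38 (SE 0.47) and −0.66 (SE 0.67).

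The genes whose levels followed each of the 10 most closely over the 7 mice, among 13844 genes well above background on all arrays, are given by their r alone. They were *Gm5127* for *Ins1* (r = 0.989), *Sorbs3* for *Ins2* (r = 0.993), *Foxr1* for *Iapp* (r = 0.988), *Zc3h11a* for *Ucn3* (r = 0.997), *Zfp174* for *Pdx1* (r = 0.994), *Pop5* for *Mafa* (r = 0.994), *Zfat* for *Nkx6-1* (r = 0.997), *Armcx1* for *Nkx2-2* (r = 0.997), *Mtmr3* for *Neurod1* (r = 0.998) and *Itpr1* for *Pax6* (r = 0.989). The next in order were *Ears2*, *Padi1*, *Rfpl4*, *1700096K18Rik*, *Ttc8*, *Armc9*, *Asb7*, *Atp6v1f*, *Ctdspl* and *Mrps11*. Between 1.03% of these genes (for *Pax6*) and 6.76% (for *Mafa*) had r above 0.9, so high r values were common over the 7 mice. The reason was not tested.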

How the data were processed

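RNA of hand-picked islets from 4 β-CB1R+/+ and 3 β-CB1R-/- mice was measured on 8 1-colour Agilent arrays. The authors deposited each spot's intensity from Feature Extraction 11.5.1.1, background-subtracted and with no scaling between arrays, beside a per-array Z score that lay within 0.00503 of the standardised log10 intensity. Groups were taken from the labels. Log2 intensities of 59305 non-control spots were set against the 75th percentile of their array, without irregular spots, and averaged per probe, and the pair of arrays of β-CB1R-/- mouse 2 was averaged. Probes were compared when well above background in at least 3 of 7 mice, with limma 3.58.1 (lmFit and eBayes, R 4.3.3), two-sided, at an adjusted p of 0.05. Probes were named through the RefSeq annotation of GRCm38.p6 (28026 matched). Single values and correlations had exact permutation tests (35 divisions, 5040 pairings). Between 33304 and 39988 probes were well above background on an array. The alternatives were normexp correction (offset 50), quantile normalisation, median centring, deposited Z scores, no or a stricter filter, irregular spots kept, either repeat array alone, a replicate block, an intensity trend, leaving out each mouse and the *t* test of the study's methods. Added after the data were seen were unscaled intensities, the relations with marker lists, the alternatives for the spread between mice, and deposited Z scores and median centring for correlations.

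The 10 genes, the gene lists and the rule for named genes (the 10 genes, a set of named beta cell genes, list genes past the threshold and the 2 genes most like each of the 10) were chosen with earlier results of these data known. The pipeline was tested on simulated data. Some of the named genes are not reported here.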

Additional observations from a re-analysis of the deposited data

How the results depend on the processing

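No member probe passed the threshold under any of the alternatives run, and no gene of the 3 other beta cell lists did with normexp, without a filter or with a mouse left out. Over all probes the number called was 43, and it was 23 with no filter on dim probes, 24 with the filter on all arrays, 0 by the methods' *t* test and 0 to 32 with a mouse left out (26, 15, 8 and 24 without β-CB1R+/+ mice 1 to 4, and 32, 0 and 4 without β-CB1R-/- mice 1 to 3). Whether the replicate numbers pair the mice is not known. The r of the deviations of same-numbered mice was 0.42, −0.27 and −0.06, and 3 such values cannot decide it. A replicate block gave 0 called probes. Of 200 log2 differences of the 10 genes under alternatives, 190 kept their direction and 10 turned, as did 1 of 10 differences of deposited Z scores (*Ins2*, −0.00833). *Ins2* was −0.0387 under quantile normalisation, and *Pax6* was 0.18 under normexp. With a mouse left out, *Ins1* ran from −0.22 to 0.10, *Ins2* from −0.0625 to 0.333, *Iapp* from −0.17 to 0.12 and *Pax6* from −0.408 to 0.0539. The others stayed below 0: *Nkx6-1* ran from −0.73 to −0.33, *Ucn3* from −0.86 to −0.33, *Pdx1* from −0.48 to −0.0057, *Mafa* from −0.35 to −0.028, *Neurod1* from −0.69 to −0.16 and *Nkx2-2* from −0.48 to −0.16. Of the 45 pairs 11 passed, against 7 under quantile normalisation, 5 with deposited Z scores, 25 unscaled, and 0 to 10 with a mouse left out (0 without β-CB1R+/+ mouse 4 or β-CB1R-/- mouse 3). The median SD between mice, 0.33, was 0.48 unscaled and 0.21 to 0.36 with a mouse left out (0.21 without β-CB1R-/- mouse 3). The cause was not tested. A block for slide or scan was not run, since each holds all arrays.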

Other observations

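By limma, 8 genes of the islet factor, function and immature lists had a p under 0.05 before adjustment and none after it, and 6 of the 8 were named only after their values were seen. *Chgb*, a granule protein, was the one that lay higher in β-CB1R-/- islets, with levels of 8.15, 8.74, 8.44 and 8.25 in the β-CB1R+/+ mice and 9.02, 9.32 and 9.59 in the β-CB1R-/- mice (log2 difference 0.91, SE 0.23, adjusted p = 0.831). *Scg2*, another granule protein, gave −0.74 (SE 0.21), and *Cpe*, the enzyme that trims insulin after cleavage, gave −0.62 (SE 0.23). *Nnat*, which aids signal peptide processing in beta cells, gave −1.37 (SE 0.50). The factors *Mlxipl*, which responds to glucose, and *St18* gave −0.74 (SE 0.32) and −0.62 (SE 0.25).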
